A study of Mus musculus with 7 samples.

Results

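Genes that bring pyruvate into the mitochondrion and run the citric acid cycle were examined in inguinal white adipose tissue, the subcutaneous fat pad of the mouse groin. The set held 34 genes, given by name, of 29517 genes in the count table: 2 subunits of the pyruvate carrier, 4 core subunits of the pyruvate dehydrogenase complex, 4 kinases and 3 phosphatase subunits that switch this complex, 18 genes of cycle enzymes and 3 anaplerotic genes. All 34 were found in the table, and all 34 passed the filter on low counts. The aconitase step of the cycle was not analysed here, and the 18 genes include Mdh1, whose malate dehydrogenase is cytosolic. Messenger RNA had been sequenced from 4 wild-type (WT) and 3 TM4SF5-/- (KO) C57BL/6 mice, untreated and fed a standard chow. Both groups share strain, diet and housing in the labels, which give neither sex nor age, nor the part of Tm4sf5 that was deleted. The series addresses the effect of TM4SF5 deficiency, a transmembrane protein, on this fat depot.

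Pyruvate from glycolysis crosses the inner mitochondrial membrane through a heterodimeric carrier and is oxidised to acetyl-CoA by the pyruvate dehydrogenase complex, which kinases switch off and phosphatases switch on. The citric acid cycle then oxidises acetyl groups and hands electrons to the respiratory chain, and pyruvate carboxylase refills it with oxaloacetate. In fat cells citrate also leaves the mitochondrion as the carbon source for fatty acids, and pyruvate carboxylase feeds the synthesis of glycerol for triglycerides.

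Library totals ran from 49775077 to 60241436 counts. Levels are given as CPM, counts relative to the library size after TMM scaling. Messages encoded by mitochondrial DNA were 8.07% to 12.1% of a WT library and 16.1% to 19.0% of a KO library. Tm4sf5 itself had 20 to 47 counts in WT and 6 to 17 in KO. After scaling, the groups touched at this low level, with 0.323 CPM in WT 4 and 0.353 CPM in KO 3. Adipoq, which encodes the fat cell hormone adiponectin, averaged 995 CPM in WT and 1634 CPM in KO, and all 6 white adipocyte markers were present in every library.

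Expression of the set leaned one way, though the members were chosen with earlier results of these data known. In 28 of 34 genes every KO library lay above every WT library, against 11.4% of the 19185 genes tested, and in 2 genes every KO library lay below every WT library, against 8.92%. The median log2 fold change (KO relative to WT, as throughout) was 0.77 over the 34 genes and -0.04 over all genes tested. No member passed an edgeR adjusted p of 0.05 over all genes, where 0% of genes were called. At an unadjusted p under 0.05, 27 members were higher and 2 lower, against 12.3% and 9.51% of all genes. Scaling by total counts alone moved the median of all genes to -0.35 and that of the members to 0.43. It left 14 members higher and 3 lower at that unadjusted p, against 694 and 4871 of the 19185 genes tested. DESeq2, run as an alternative test on the same genes, called 25 members higher and 1 lower at an adjusted p of 0.05, against 6.83% and 5.17% of the genes it tested. The member called lower was Pdk3. In simulated data 100 of 18842 genes were changed 2-fold and 100 were changed 4-fold. There 6 of 93 edgeR calls and 64 of 195 DESeq2 calls were false, a DESeq2 share well above the threshold of 0.05. Such a share varies with the number of genes that truly change. How many of the DESeq2 calls on the members are false was therefore not measured. Of simulated 2-fold changes edgeR recovered 10% and DESeq2 35%. The lack of edgeR calls among the members therefore does not show that they were unchanged.

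**Figure D1:**
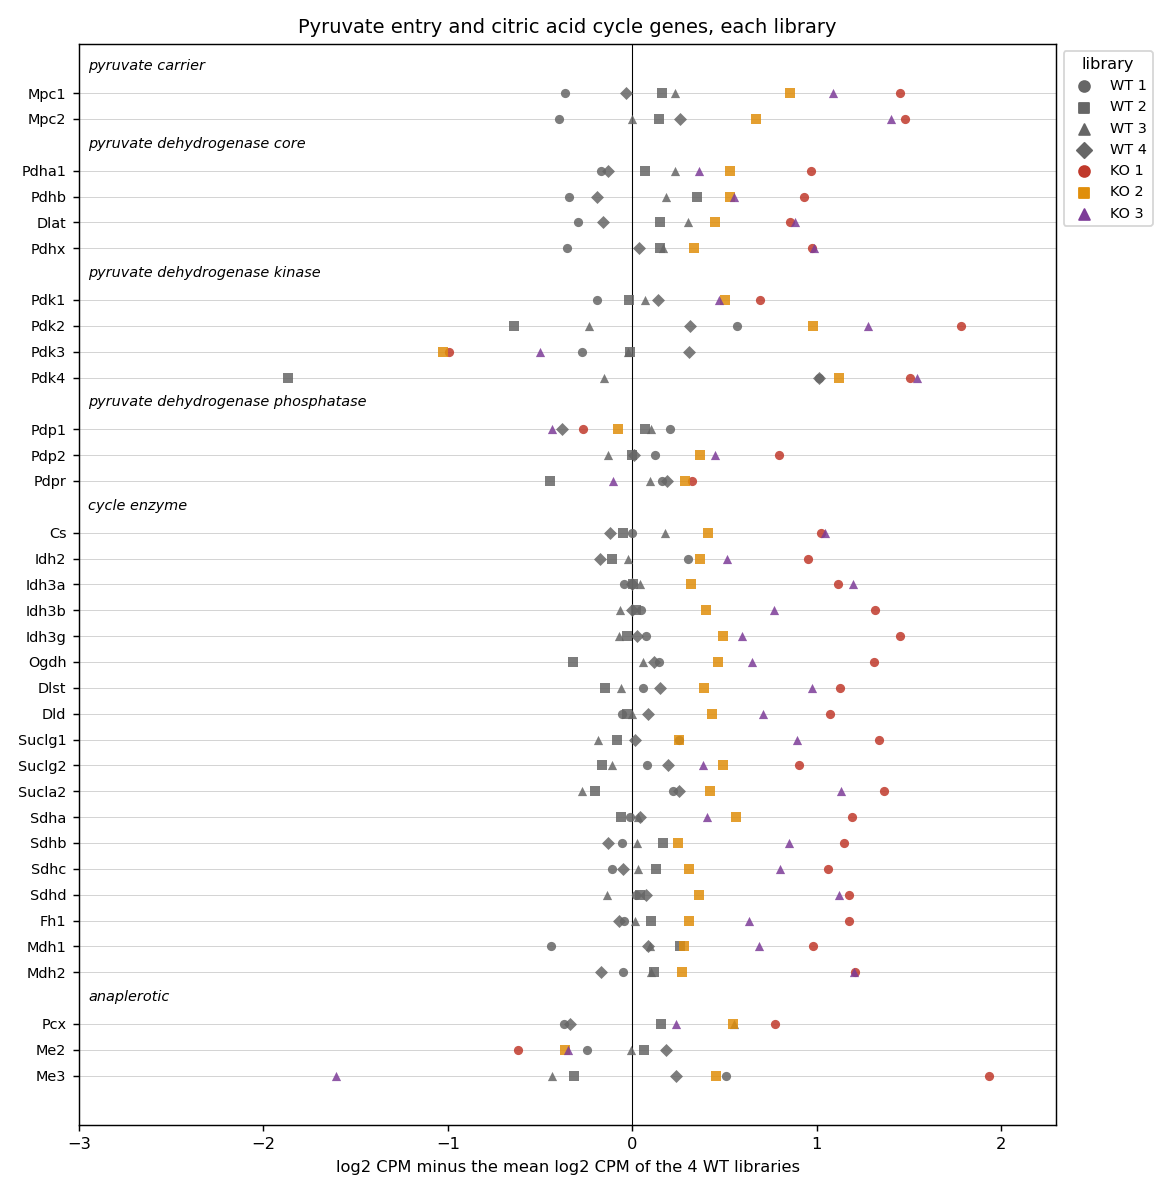
Log2 CPM of the 34 genes in each library, as the difference from the mean log2 CPM of the 4 WT libraries. Grey symbols are WT libraries and coloured symbols KO libraries, 1 point per library. Cycle enzymes lie to the right of all WT points in all 3 KO libraries, with KO 2 nearest to WT in most of them, while Pdk3 and Me2 lie to the left.

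The pyruvate carrier had the 2 smallest adjusted p values of the set. Mpc1 and Mpc2 encode the 2 subunits of the mitochondrial pyruvate carrier. Mpc1 was at 238, 343, 360 and 299 CPM in WT 1 to WT 4 and at 838, 554 and 651 CPM in KO 1 to KO 3. Every KO library exceeded the highest WT library, and the means were 310 and 681 CPM (log2 fold change 1.14, SE 0.21, edgeR adjusted p = 0.0956). Mpc2 was at 118, 172, 155 and 186 CPM in WT and at 433, 248 and 411 CPM in KO. Its groups did not overlap either, with a fold of 2.31 (log2 fold change 1.21, SE 0.24, edgeR adjusted p = 0.0956). Of the Mpc1 exon bases, 12.7% are shared with a transcript on the opposite strand, and whether counting used strand is not given.

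The 250 bases before the annotated starts of the genes were searched for 4 short motifs on both strands, as a description of the letters only. The motifs were TCAAGGTCA, bound by estrogen-related receptors, its core AAGGTCA, GCATGCGC, bound by NRF1, and CCGGAAG, bound by GABP and other ETS factors. RefSeq windows (GRCm38.p6) were matched for 30 of the 34 genes and for 18836 genes of the table. The first 2 motifs, of which the longer contains the shorter, were in 0 of 30 members and in 0.361% and 4.28% of all genes. The NRF1 motif was in 2 of 30 members (6.67%) and 3.39% of all genes, and the ETS motif in 3 of 30 members and 10.3% of all genes. The members with a match were Mpc1, Idh3g, Sdhd, Sdhb and Ogdh. All were higher in every KO library than in any WT library, as were 28 of the 34 members counted with or without a match. The windows of Mpc1, Idh3g and Sdhb are shown as examples of both motifs, chosen because an annotated GENCODE transcript covers the bases just after their start. They run 5′ to 3′ on the gene's strand, with the match in capitals, CCGGAAG in Mpc1 (chr17:8283537-8283786, plus strand) and Idh3g (chrX:73786898-73787147, minus strand) and GCATGCGC in Sdhb (chr4:140961021-140961270, plus strand).
Mpc1: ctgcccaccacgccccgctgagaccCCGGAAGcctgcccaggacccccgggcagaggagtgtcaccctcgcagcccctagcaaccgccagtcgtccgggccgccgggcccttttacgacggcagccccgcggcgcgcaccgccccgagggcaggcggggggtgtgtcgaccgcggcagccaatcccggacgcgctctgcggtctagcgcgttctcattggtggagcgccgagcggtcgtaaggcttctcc
Idh3g: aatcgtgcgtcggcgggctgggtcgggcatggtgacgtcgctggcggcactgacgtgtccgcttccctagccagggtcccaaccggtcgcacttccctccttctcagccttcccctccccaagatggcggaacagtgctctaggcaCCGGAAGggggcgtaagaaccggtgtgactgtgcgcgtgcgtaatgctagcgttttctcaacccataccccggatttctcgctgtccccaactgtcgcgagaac
Sdhb: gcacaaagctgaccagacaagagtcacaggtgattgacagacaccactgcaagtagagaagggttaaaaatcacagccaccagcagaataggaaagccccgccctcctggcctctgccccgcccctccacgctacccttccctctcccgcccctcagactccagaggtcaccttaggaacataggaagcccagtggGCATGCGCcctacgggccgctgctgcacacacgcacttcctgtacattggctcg

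Core subunits of the pyruvate dehydrogenase complex were higher in all KO libraries, by less than the carrier in their point estimates. Pdha1 and Pdhb encode the alpha and beta subunits of the E1 component, Dlat the E2 acetyltransferase, and Pdhx the protein that binds E3 to the core. Pdha1 was at 677, 797, 895 and 694 CPM in WT and 1491, 1099 and 978 CPM in KO, a fold of 1.55 (log2 fold change 0.64, SE 0.21, edgeR adjusted p = 0.144). The lowest KO library, KO 3, stood little above the highest WT library, WT 3. Pdhb averaged 437 ± 97.4 CPM over the 4 WT libraries and 689 ± 113 CPM over the 3 KO libraries (mean ± SD). Dlat averaged 289 ± 54.6 CPM in WT and 477 ± 76.5 CPM in KO. Pdhx averaged 70.1 CPM in WT and 120.4 CPM in KO, a log2 fold change of 0.78 (SE 0.20, edgeR adjusted p = 0.105). All 4 thus separated the groups, with log2 fold changes between 0.64 and 0.78. In Pdha1, 21.2% of exon bases are shared with Map3k15 on the opposite strand.

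The 4 kinases that phosphorylate and switch off the complex did not move together. Pdk2, a widely expressed isoform, was at 133, 57.3, 76.1 and 111 CPM in WT and 308, 177 and 218 CPM in KO. Its log2 fold change of 1.31 (SE 0.31, edgeR adjusted p = 0.0967) was the highest of the 34 genes in this fit. Pdk1, a target of hypoxia-inducible factor, had 105, 118, 125 and 131 CPM in WT and 192, 169 and 165 CPM in KO, a fold of 1.47. Pdk3 went the other way, from 8.89, 10.7, 10.6 and 13.3 CPM in WT to 5.39, 5.28 and 7.59 CPM in KO. No KO library reached the lowest WT library (log2 fold change -0.83, SE 0.22, edgeR adjusted p = 0.105).

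Pdk4, the isoform induced by fasting and by fatty acids, varied most within WT. It was at 352, 47.9, 157 and 352 CPM in WT 1 to WT 4 and at 496, 380 and 509 CPM in KO. The KO libraries all exceeded WT 4, by little in the case of KO 2 (log2 fold change 1.02, SE 0.58, edgeR adjusted p = 0.336). The log2 fold change was 0.69 without WT 2 and 1.72 with the replicate number as a block. That block pairs libraries that share only a number, and WT 4, with no KO library of its number, does not inform it. Per kilobase of exons, the scale on which genes can be compared, Pdk4 stood at 65.2 ± 43.3 CPM per kb over 4 WT libraries (mean ± SD) and at 133 ± 20.5 over 3 KO libraries. On that scale Pdk2 was at 42.0 ± 15.1 and 104 ± 29.9, Pdk1 at 23.1 ± 2.21 and 33.9 ± 2.83, and Pdk3 at 5.13 ± 0.862 and 2.88 ± 0.615. Pdk4 and Pdk2 were thus the most abundant kinases by group mean in both groups. Pdk3 therefore made 2.28% to 7.53% of kinase message in WT and 0.798% to 1.29% in KO, where the groups did not overlap. The Pdk4 share, at 20.5% to 55.5% in WT and 44.6% to 52.5% in KO, did overlap.

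**Figure D2:**
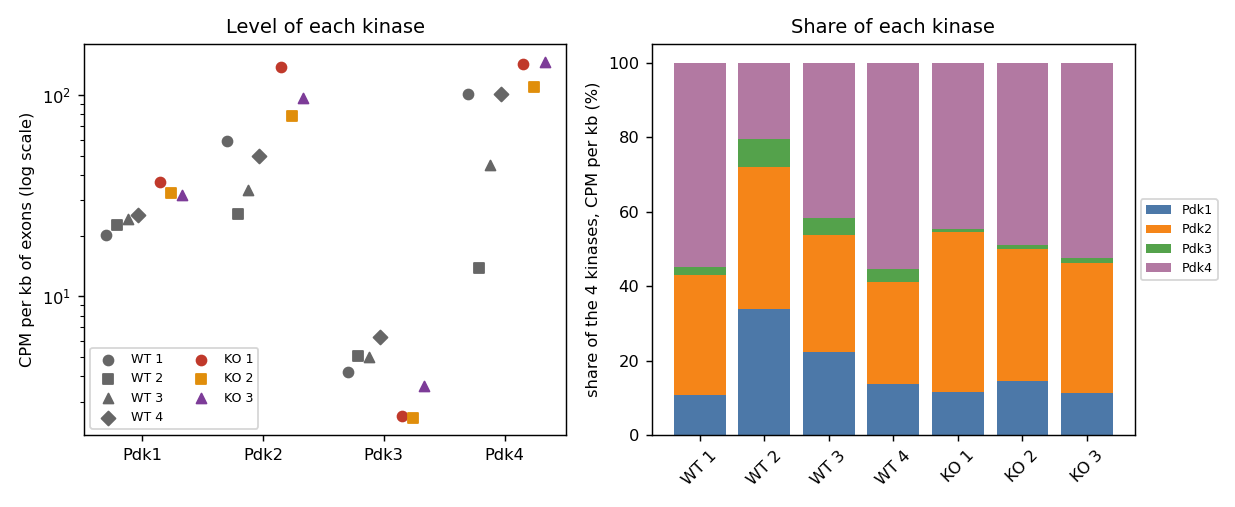
Left, level of each pyruvate dehydrogenase kinase gene in CPM per kb of exons on a log axis, 1 point per library. Right, share of each kinase among the 4 in each library, in percent of their summed CPM per kb. Pdk2 is higher and Pdk3 lower in all KO libraries, and Pdk4 spreads from 20.5% to 55.5% of the sum across WT libraries.

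The phosphatase genes, whose products switch the complex back on, showed smaller differences. Pdp2, a catalytic subunit, had 36.2 to 43.2 CPM in WT and 69.0, 51.2 and 54.2 CPM in KO, which did not overlap (log2 fold change 0.55, SE 0.14, edgeR adjusted p = 0.105). Pdp1, the other catalytic subunit, overlapped, with 8.29 to 12.4 CPM in WT and 7.98 to 10.2 CPM in KO (log2 fold change -0.27, SE 0.19). Pdpr, the regulatory subunit, overlapped as well, with 60.4 to 93.5 CPM in WT and 76.5 to 103 CPM in KO (log2 fold change 0.16, SE 0.19). Scaling by total counts alone turned that of Pdpr to -0.16. Pdp2 made 74.4% ± 3.44 of the catalytic phosphatase message per kb over 4 WT libraries (mean ± SD) and 83.4% ± 3.12 over 3 KO libraries.

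All 18 genes of cycle enzymes, the cytosolic Mdh1 included, were higher in every KO library than in any WT library. Their summed level was 5215, 5144, 5309 and 5298 CPM in WT 1 to WT 4 and 11730, 6881 and 9333 CPM in KO 1 to KO 3. WT libraries thus differed little among themselves, while the KO libraries spread widely. KO 2 was the lowest KO library in 16 of the 18 genes and KO 1 the highest library of all 7 in 16. Log2 fold changes ran from 0.60 for Suclg2 to 1.01 for Sucla2, with a median of 0.85.

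Entry into the cycle and its first oxidative steps showed this pattern. Cs, citrate synthase, which joins acetyl-CoA to oxaloacetate, was at 689, 666, 780 and 634 CPM in WT and 1405, 916 and 1422 CPM in KO (log2 fold change 0.85, SE 0.21, edgeR adjusted p = 0.098). The 3 subunit genes of NAD-dependent isocitrate dehydrogenase, Idh3a (catalytic), Idh3b and Idh3g, were nearly constant over WT. Idh3a was at 332, 343, 352 and 342 CPM in WT and at 743, 427 and 784 CPM in KO, a fold of 1.90 (log2 fold change 0.93, SE 0.22, edgeR adjusted p = 0.0967). Idh3b had 236 to 256 CPM in WT and 326 to 615 CPM in KO, and Idh3g 186 to 206 and 276 to 535 CPM. The highest library was KO 3 for Idh3a and KO 1 for Idh3b and Idh3g. Idh2, the NADP-dependent mitochondrial enzyme, was at 81.3 to 113 CPM in WT and 178, 118 and 131 CPM in KO, where KO 2 stood just above WT 1.

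The oxoglutarate dehydrogenase complex consists of Ogdh (E1), Dlst (E2) and Dld, the E3 that it shares with pyruvate dehydrogenase. Ogdh averaged 560 ± 78.2 CPM over the 4 WT libraries and 1006 ± 328 CPM over the 3 KO libraries (mean ± SD), a fold of 1.80. Dlst was at 298, 258, 273 and 317 CPM in WT and at 624, 374 and 562 CPM in KO (log2 fold change 0.86, SE 0.20, edgeR adjusted p = 0.0967). Dld had 256, 261, 266 and 282 CPM in WT and 560, 359 and 435 CPM in KO, with the same adjusted p and a log2 fold change of 0.76 (SE 0.17). No library of one group reached the other in any of these 3 genes.

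Succinyl-CoA ligase pairs the alpha subunit Suclg1 with the beta subunit Sucla2, which makes ATP, or Suclg2, which makes GTP. Sucla2 was at 254, 190, 180 and 260 CPM in WT and 561, 292 and 478 CPM in KO, a fold of 2.01 (log2 fold change 1.01, SE 0.25, edgeR adjusted p = 0.101). Suclg2 was at 77.2, 65.4, 67.9 and 83.6 CPM in WT and 137, 103 and 95.4 CPM in KO, a fold of 1.52. Suclg1 had 128 to 173 CPM in WT and 173.5 to 368 CPM in KO, where KO 2 and WT 1 nearly met. The ratio of Sucla2 to Suclg2 was higher in KO by 0.38 on the log2 scale but overlapped (exact permutation p = 0.171, two-sided). Per kb, Sucla2 made 83.4% ± 1.29 of beta subunit message over 4 WT libraries (mean ± SD) and 86.5% ± 3.42 over 3 KO libraries.

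Succinate dehydrogenase, which is also complex II of the respiratory chain, has the catalytic subunits Sdha and Sdhb and the membrane anchors Sdhc and Sdhd. Sdha was at 678, 656, 698 and 705 CPM in WT and 1561, 1011 and 907 CPM in KO (log2 fold change 0.76, SE 0.22, edgeR adjusted p = 0.117). KO 3, near the top for Sdhd, was the lowest KO library for Sdha. Sdhd was at 168, 172, 151 and 175 CPM in WT and 376, 214 and 362 CPM in KO, a fold of 1.90. Sdhb, whose promoter window is printed above, had 173 to 213 CPM in WT and 225 to 421 CPM in KO, and Sdhc 128 to 151 and 171 to 289 CPM. All 4 separated the groups, Sdhb with KO 2 close to WT 2.

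Of the last steps, Fh1, fumarase, averaged 134 ± 7.34 CPM over the 4 WT libraries and 225 ± 70.0 CPM over the 3 KO libraries (mean ± SD). Mdh2, mitochondrial malate dehydrogenase, was at 314, 353, 349 and 289 CPM in WT and 751, 392.3 and 749 CPM in KO (log2 fold change 0.95, SE 0.24, edgeR adjusted p = 0.103). Mdh1, the cytosolic enzyme of the malate-aspartate shuttle, was at 347, 564, 503 and 501 CPM in WT and 930, 572 and 760 CPM in KO (log2 fold change 0.66, SE 0.23, edgeR adjusted p = 0.166). KO 2 exceeded WT 2 by little in Mdh1, so that its separation rests on a narrow gap.

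The anaplerotic genes did not share the pattern. Pcx, pyruvate carboxylase, had the highest level per kb of the set, at 360 ± 114 CPM per kb over 4 WT libraries (mean ± SD) and 504 ± 92.2 over 3 KO libraries. In CPM it was at 1141, 1643, 2167 and 1169 in WT and 2522, 2155 and 1740 in KO, so that the groups overlapped (log2 fold change 0.48, SE 0.28, edgeR adjusted p = 0.353). Me2, an NAD-linked mitochondrial malic enzyme, was at 42.8, 53.0, 50.5 and 57.6 CPM in WT and at 32.9, 39.4 and 39.8 CPM in KO. Every KO library was below every WT library (log2 fold change -0.45, SE 0.15, edgeR adjusted p = 0.144). Me3, the NADP-linked mitochondrial enzyme, had the lowest level of the set, with 1.64 to 3.16 CPM in WT and 8.48, 3.04 and 0.727 CPM in KO. Its KO libraries spanned the whole WT range, and its log2 fold change of 0.83 (SE 0.68) became -0.29 without KO 1. Of its exon bases, 8.72% are shared with an antisense transcript.

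Balance between partner genes was tested with 10 ratios within libraries. None passed an exact permutation test with Benjamini-Hochberg adjustment over the 10, where the smallest unadjusted p possible is 0.0286. A single ratio at that smallest p could not have passed by itself, so the lack of calls was partly set by the number of libraries. The ratio of Pdp2 to Pdp1 came nearest. It averaged 1.83 ± 0.26 on the log2 scale over 4 WT libraries (mean ± SD) and 2.61 ± 0.31 over 3 KO libraries, which all lay above the WT range (exact permutation p = 0.0571, adjusted 0.571). Differences of the ratios Pdhb to Pdha1 (0.05), Mpc1 to Mpc2 (-0.05), Sdhb to Sdha (0.03), Idh3b to Idh3a (-0.05) and Pdk4 to Pdk2 (0.04) were within 0.1 of 0 on the log2 scale, with SDs of 0.08 to 0.85 among WT libraries. Ratios of Mdh2 to Mdh1 (0.24), Idh2 to Idh3a (-0.27) and Pcx to Pdha1 (-0.10) overlapped between the groups as well. These tests cannot show that the partners moved alike.

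Markers of some cell types also differed between the groups, not all in the direction of the set. In bulk tissue, fewer cells of a type and less RNA per cell cannot be told apart. The summed level of 6 white adipocyte markers was 3507 to 5170 CPM in WT and 6430 to 9502 CPM in KO, without overlap, although 3 of the 6 (Adipoq, Lep and Retn) overlapped singly and the mean of Lep was lower in KO. The sum of 6 macrophage markers was 1131 to 1661 CPM in WT and 389 to 627 CPM in KO, where Adgre1, Cd68 and Mrc1 overlapped singly. Brown or beige markers summed to 450, 141, 134 and 937 CPM in WT 1 to WT 4 and to 2302, 544 and 1476 CPM in KO 1 to KO 3. They ranked the KO libraries in the same order as the cycle enzymes, but KO 2 lay below WT 4. Muscle fibre markers, at 17.2, 539, 3.75 and 1276 CPM in WT and 149, 67.6 and 15.9 CPM in KO, were highest in WT 2 and WT 4. The cycle sum in those 2 libraries was 5144 and 5298 CPM, against 5215 and 5309 CPM in the other WT libraries. Without WT 2 and WT 4, a choice made after the data were seen, 25 members were higher and 1 lower at an unadjusted p under 0.05, against 8.55% and 8.26% of all genes. Markers of epithelium were near 0, with a sum of at most 2.43 CPM in WT and 1.72 to 12.0 CPM in KO. T cell, B cell, endothelial and adipocyte progenitor sums overlapped between the groups.

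Relative to white adipocyte markers the cycle enzymes did not separate the groups. The ratio of the cycle sum to the sum of the 6 markers was 1.01, 1.47, 1.27 and 1.17 in WT and 1.23, 0.986 and 1.45 in KO. Of the 34 members, 0 lay above all WT libraries in all KO libraries on this scale, 5 lay below (Suclg2, Pdk3, Pdp1, Pdpr and Me2) and 29 overlapped. Of all genes tested, 0.375% lay above and 45.3% below on this scale. This scale was chosen after the data were seen, and the part of cell composition in the differences was not tested.

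**Figure D3:**
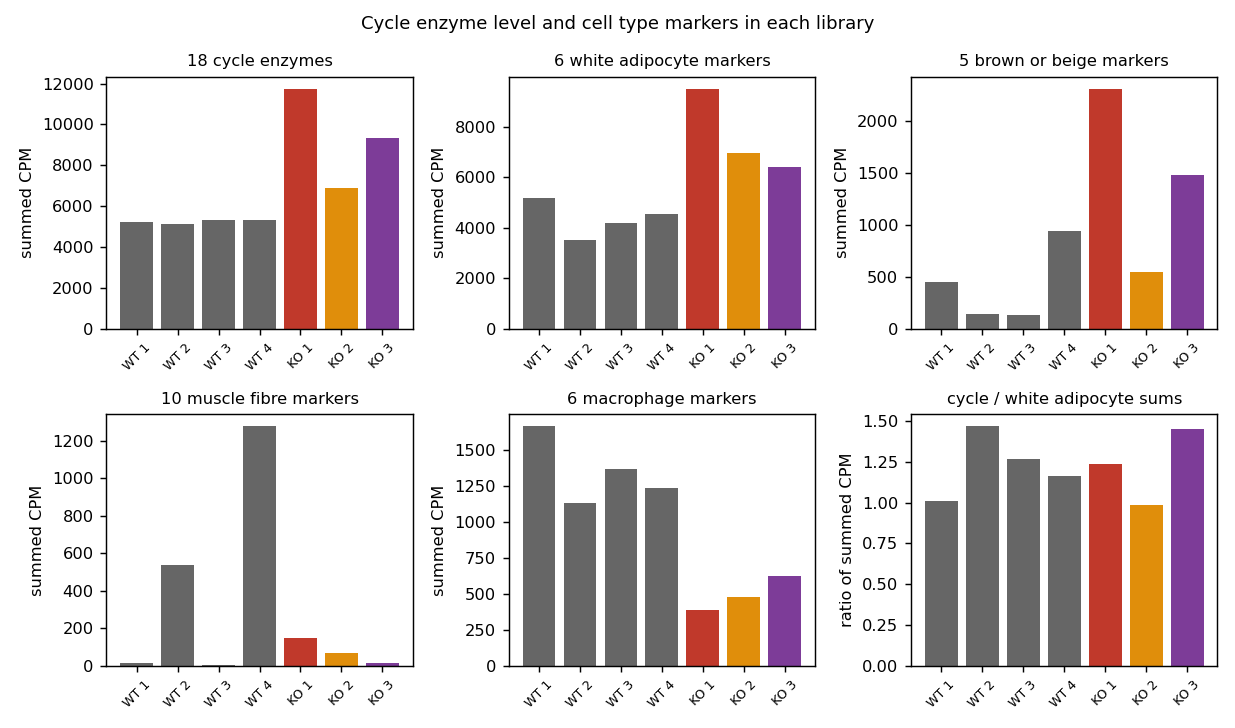
Summed CPM of the 18 cycle enzyme genes and of 4 marker lists in each library, and the ratio of the cycle sum to the white adipocyte sum (bottom right). Bars start at 0, grey for WT and coloured for KO. The cycle sum is flat over WT (5144 to 5309 CPM) and higher in KO (6881 to 11730 CPM), while the ratio overlaps between the groups.

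The 38 linked genes, which supply, drain or service the cycle, leaned in the same direction with more exceptions. None passed the edgeR adjusted p of 0.05. At an unadjusted p under 0.05, 18 were higher and 2 lower in KO, against 12.3% and 9.51% of all genes. In 14 every KO library lay above every WT library and in 2 below, against 11.4% and 8.92%. Their median log2 fold change was 0.55. Like the members, they were chosen with earlier results of these data known.

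Genes that attach lipoate, the cofactor of the E2 subunits, were all higher in every KO library. Lias, lipoic acid synthase, was at 34.7 to 39.2 CPM in WT and 65.8, 52.4 and 61.5 CPM in KO (log2 fold change 0.71, SE 0.13, edgeR adjusted p = 0.0956). Lipt1 (1.03, SE 0.21) and Lipt2 (0.83, SE 0.28), both lipoyl transferases, separated too, Lipt2 at only 2.69 to 7.75 CPM. Of the succinate dehydrogenase assembly factors, Sdhaf4 (0.80, SE 0.19), Sdhaf1 (0.65, SE 0.16) and Sdhaf3 (0.57, SE 0.21) separated the groups.

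Carriers split. Slc25a1, which exports citrate, was at 466, 657, 718 and 1057 CPM in WT and 2041, 1688 and 1619 CPM in KO (fold of the means 2.46, edgeR adjusted p = 0.0957). Slc25a12 (-0.71, SE 0.20) and Slc25a13 (-0.89, SE 0.23), the aspartate-glutamate carriers, were lower in every KO library, the latter at 1.64 to 3.71 CPM. Got2 (-0.33, SE 0.16) and Gpt2 (0.34, SE 0.28), which are mitochondrial aminotransferases, overlapped, as did the cytosolic aspartate aminotransferase Got1 (-0.27, SE 0.24).

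Ldha, which interconverts pyruvate and lactate, separated at 702 to 976 CPM in WT and 1076 to 1577 CPM in KO, while Ldhb (0.80, SE 0.30) overlapped. Pck1, phosphoenolpyruvate carboxykinase of glycerol synthesis, ran from 205 CPM in WT 2 to 2574 CPM in WT 1, and overlapped with 2375 to 3736 CPM in KO. Acat1, a mitochondrial thiolase of ketone body metabolism, had a log2 fold change of 0.81 (SE 0.20) and did not overlap, whereas Oxct1 (0.45, SE 0.18), which activates ketone bodies, and Acss1 (0.02, SE 0.27), which activates acetate, did. D2hgdh (0.55, SE 0.21), a mitochondrial dehydrogenase that yields oxoglutarate, overlapped, as did the cytosolic isocitrate dehydrogenase Idh1 (0.30, SE 0.19) and the cytosolic malic enzyme Me1 (0.59, SE 0.40).

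Among regulators, Sirt3, the main mitochondrial deacetylase, was at 15.6, 12.0, 13.8 and 14.4 CPM in WT and 38.2, 23.5 and 24.5 CPM in KO (log2 fold change 1.04, SE 0.20, edgeR adjusted p = 0.0956). Sirt5, a desuccinylase, had 0.68 (SE 0.16) and separated as well. Esrra, the nuclear receptor that binds the estrogen-related receptor motif named above, was at 51.7, 62.6, 50.8 and 60.9 CPM in WT and 101, 63.8 and 113 CPM in KO, where KO 2 was close to WT 2. Its coactivator Ppargc1a overlapped (0.35, SE 0.29), with KO 3 alone above the WT range. Nrf1 (-0.21, SE 0.14) and Gabpa (0.06, SE 0.13) overlapped between the groups.

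**Figure D4:**
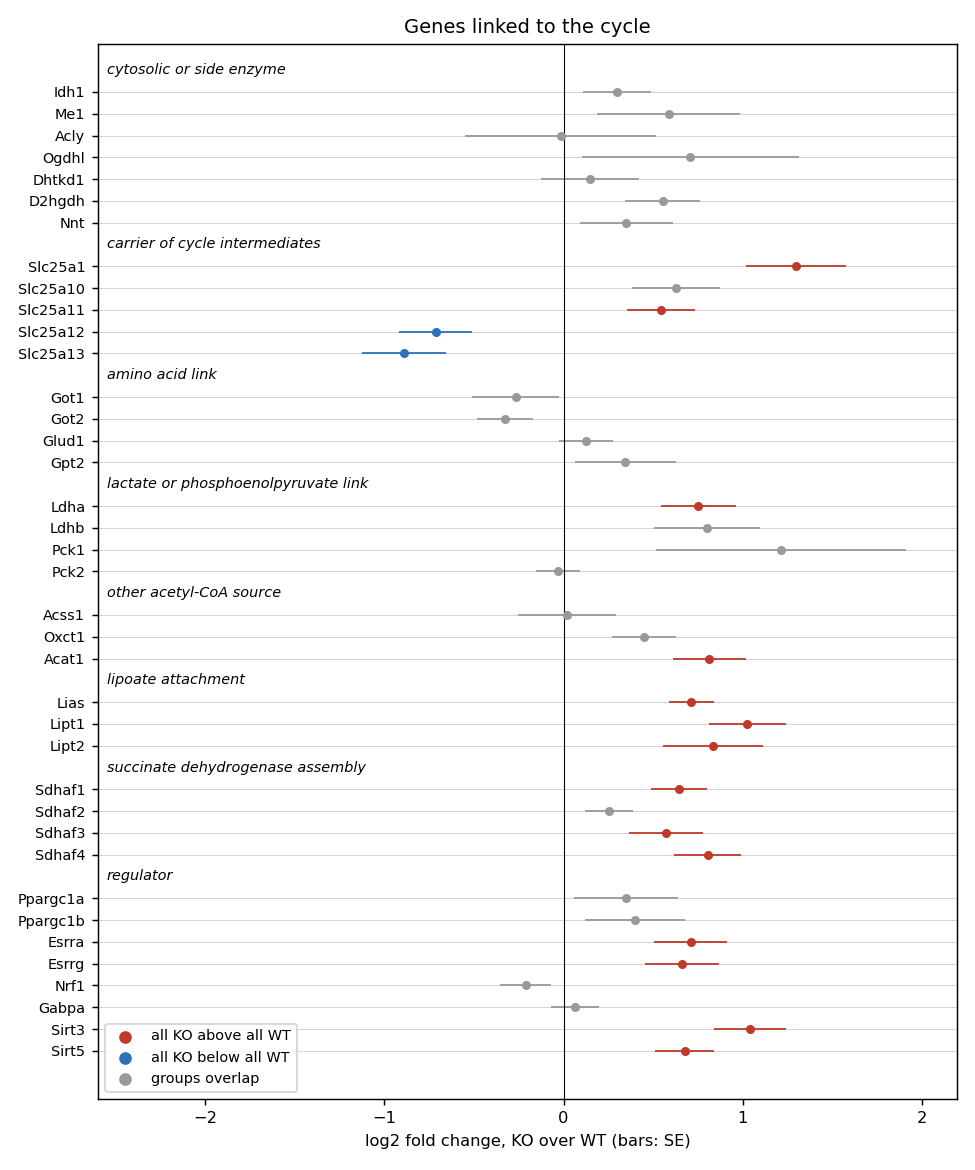
Log2 fold change of KO over WT for the 38 linked genes, with bars of 1 SE. Red marks genes whose KO libraries all lie above all WT libraries, blue those that all lie below, and grey those that overlap. Lipoate attachment genes lie between 0.71 and 1.03, and Slc25a12 and Slc25a13, in blue, lie below 0.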

How the data were processed

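Whole-tissue mRNA of 7 libraries (4 WT, 3 KO) was measured. The deposited table holds raw read counts per Entrez gene, and no other per-sample column was present. Per the submitters' processing notes, bcl2fastq 2.20.0, Trimmomatic, HISAT2 2.1.0 (mm10), StringTie 1.3.4d and DESeq2 were used. No source used here names the annotation, the counting rule or the strand setting. Per the labels' protocols, libraries were made with a stranded mRNA kit. Symbols came from a RefSeq table of GRCm38.p6, which matched 29444 of 29517 identifiers. The 73 others held 0.059% to 0.162% of counts and stayed in the fit.

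The analysis ran in R 4.3.3 with edgeR 4.0.16. Its filterByExpr function (minimum count 10) left 19185 genes, scaled by TMM (trimmed mean of M values). KO was tested against WT by edgeR's quasi-likelihood test across all genes with Benjamini-Hochberg adjustment, and SEs came from the F statistic. Alternatives included DESeq2 1.42.0 and limma-voom (limma 3.58.1). The scripts were tested on simulated data. Levels per kb divide CPM by the union of exons in GENCODE M21 (basic set). Ratios are differences of log2(CPM + 0.5), tested by an exact two-sided permutation test over 35 splits.

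The members and the gene lists were chosen with earlier results of these data known. Some genes first listed as linked are not reported here, and the 38 linked genes counted do not include them. All members are named, and up to 3 linked genes per sublist with the smallest p, with Ppargc1a, Esrra, Nrf1 and Gabpa. The design text calls the replicates biological. It speaks of 3 per condition, while the labels list 4 WT libraries. All 7 were used. Every pair of libraries differed by more than sampling noise. The p-values measure only the spread between these libraries. Promoter windows were read from the RefSeq sequence table.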

Additional observations from a re-analysis of the deposited data

Results flagged for a closer look

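Among the 4 WT libraries, 3 values lay apart by Dixon's test at the 95% level. This was looked at for 82 genes and ratios, and chance marks about 1 in 20. Pdpr in WT 2, at 60.4 CPM, lay below the other WT libraries at 87.9 to 93.5 CPM. Ldhb in WT 2, at 117 CPM, lay above the others at 71.2 to 72.8 CPM. Acss1 in WT 4, at 71.6 CPM, lay above the others at 37.8 to 42.3 CPM. WT 2 and WT 4 are also the libraries with the highest muscle fibre marker sums, and the part of muscle in these values was not tested.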

How the results depend on the processing

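With total counts alone, the median of all genes moved from -0.04 to -0.35. The members' median was then 0.43, and 14 members were higher at an unadjusted p under 0.05. For linked genes 6 were higher and 5 lower, and for all genes 694 and 4871, with 1 past the adjusted threshold. Pdpr turned to -0.16. With total counts without mitochondrially encoded genes (median of all genes -0.23), the members' median was 0.56, 10 linked genes were higher, all genes split into 1143 and 3217 with 1 past the adjusted threshold, and Pdpr was at -0.039. DESeq2 called 2120 genes and 26 members, and limma-voom called 1 gene and 0 members. The 2 lower members became 1 with the replicate block and 1 without WT 2 and WT 4, as did the 2 lower linked genes without WT 2 and WT 4. Same-numbered libraries shared only a number (correlation of deviations 0.287, -0.264 and -0.0937). WT 4 has no KO library of its number, so it does not inform the KO difference under the replicate block. For ratios the block leaves WT 4 out, and the ratio Sdhb to Sdha was then -0.032. The cause of the other changes was not tested.

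Leaving out 1 library at a time gave 24 to 28 higher and 1 to 2 lower members, and a median of 0.56 (without KO 1) to 0.97 (without KO 2). It gave 11 to 19 higher and 2 to 3 lower linked genes, 1383 to 2419 higher and 948 to 2217 lower among all genes, and 0 past the adjusted threshold. Me3 ran from -0.29 to 1.36, and the ratios Pdhb to Pdha1 from -0.018 to 0.15, Pdk4 to Pdk2 from -0.36 to 0.28, Mpc1 to Mpc2 from -0.17 to 0.0805, Pcx to Pdha1 from -0.17 to 0.0043, Sdhb to Sdha from -0.18 to 0.20 and Idh3b to Idh3a from -0.17 to 0.14. The lowest values came without KO 1 for the counts of higher genes, and Me3 turned without it. Depth limits Me3 most, at 35 to 337 counts per library, while every other member had at least 214.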
